A study of Mus musculus with 4 samples.

Results

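The windows described here are those around the start sites of 9684 mouse genes whose Ensembl identifier runs from ENSMUSG00000102000 to ENSMUSG00000111999. They were taken from a table of 51121 start site windows and make up 18.9% of it. The digits after ENSMUSG broadly follow the order in which gene models were entered, and these late numbers were given mostly to gene models added in later rounds of annotation. Many are noncoding RNAs, pseudogenes or transcripts that Ensembl lists as still awaiting experimental support. The number is a proxy for gene class and not the class itself: the RefSeq tables used here hold no Ensembl identifiers, so none of the windows in the table, late or early, was paired with a gene name or checked for its type. The windows were set beside those of 17863 genes with early numbers, up to and including ENSMUSG00000063999, which are mostly protein-coding. A further 22641 windows with the middle numbers in between were used as a second comparison. Genomic positions and sequences of the windows were not analysed here.

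H3K9me3, trimethylation of lysine 9 on histone H3, is a repressive mark typical of heterochromatin and of silenced transposable elements. KAP1, also called TRIM28, is a scaffold that KRAB zinc finger proteins bring to such elements and that in turn recruits an H3K9 methyltransferase. Noncoding transcripts and pseudogenes often lie in or next to repeated sequence, and short reads from repeats can be hard to place at a single position.

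The study profiled regulatory T cells (Tregs), the Foxp3-expressing T cells that restrain immune responses, from spleens of C57BL/6 mice. Its 4 libraries were an H3K9me3 immunoprecipitate and an input for wild-type cells and the same pair for KAP1-deficient cells. The deposited table has 2 columns of read counts, headed Foxp3creKAP1+/+ and Foxp3creKAP1f/f. By these headings both genotypes carry Foxp3-cre, a recombinase expressed where Foxp3 is. The design is meant to restrict deletion of the floxed Kap1 allele to cells with a history of Foxp3 expression. The headings do not name the antibody. The columns are read as the H3K9me3 libraries from the study's description alone, and are called the KAP1+/+ library (wild type) and the KAP1f/f library (KAP1-deficient). The sources used here do not give the age of the mice or say whether animals were pooled. The library totals over windows were 480326 and 228009 reads, so the KAP1+/+ library held 2.11 times as many reads in these windows. Reads outside the windows were not counted here. Shares of a library and scaling to total reads below refer to these totals over windows. With 1 library per genotype there is no replicate error and no test. Intervals below are exact 95% Poisson or binomial intervals unless said otherwise. They cover counting error only, and reads without molecular identifiers are not independent molecules. The deletion of Kap1 and the identity of the cells were not checked, since windows were not paired with gene names.

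Late-numbered windows held fewer reads than early-numbered ones in both libraries. In the KAP1+/+ library they had a mean of 8.64 reads (interval 8.58 to 8.70; SD over windows 5.71) and a median of 9, with quartiles of 4 and 13. Early-numbered windows had a mean of 11.99 reads (11.94 to 12.04; SD 5.61), a median of 12 and quartiles of 8 and 16. In the KAP1f/f library the late-numbered mean was 4.32 reads (4.28 to 4.36; SD 3.57) with a median of 4. The early-numbered mean there was 5.39 reads (5.36 to 5.42; SD 3.603) with a median of 5. The mean of late over early windows was therefore 0.72 in the KAP1+/+ and 0.80 in the KAP1f/f library, and the window distributions overlapped broadly. Part of the gap came from windows without any read. Among windows with at least 1 read, the late-numbered mean was 9.92 reads in the KAP1+/+ library against 12.3 in early windows, and 4.96 against 5.52 in the KAP1f/f library. The ratios of these means were 0.81 and 0.90, so windows that did hold reads were also shallower among late numbers.

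**Figure D1:**
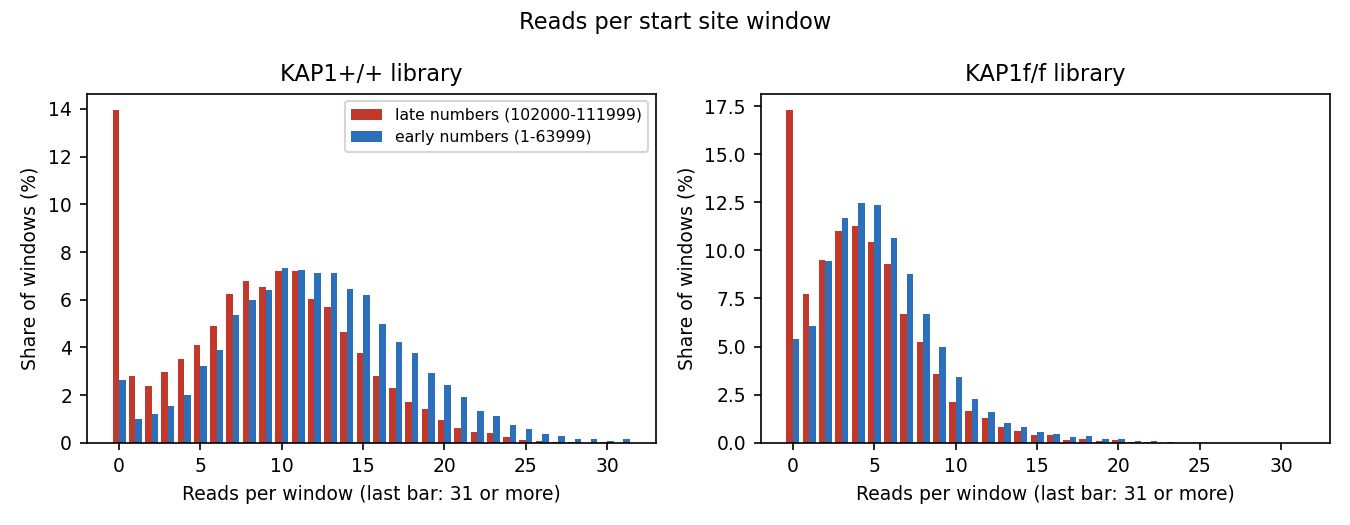
Share of windows (%, vertical axis) with each number of reads (horizontal axis) for late and early Ensembl numbers, one panel per library. Late-numbered windows have a bar at 0 reads of 13.95% in the KAP1+/+ and 17.3% in the KAP1f/f library, and otherwise a distribution shifted to fewer reads.

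Windows without a read were several times more frequent among late numbers. Of the 9684 windows, 1245 (12.9%, interval 12.2 to 13.5) had no read in either library, compared with 418 of 17863 early windows (2.34%, 2.12 to 2.57), a ratio of 5.49. The middle numbers had a still higher share, 19.4% (18.9 to 19.9). Late windows thus supplied 20.3% of all windows without a read, close to their 18.9% share of the table, and it was the early windows that were poor in them. A further 106 late windows (1.09%) were at 0 in the KAP1+/+ library alone and 429 (4.43%) in the KAP1f/f library alone, against 0.28% and 3.07% of early windows. Where reads can be placed, a count of 0 was set to allow up to 3 reads in a library. The exact interval for a count of 0 reaches slightly further, to 3.69. The mappability of the empty windows was not tested, and a count of 0 is not taken here as absence of H3K9me3. At the other end, 2022 late windows (20.9%, 20.1 to 21.7) held 20 reads or more over both libraries, against 37.4% of early windows, and 280 (2.89%) held 30 or more, against 6.77%.

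Outside the empty windows, the late-numbered windows were spread broadly, with no extreme member. KAP1+/+ counts were most often 10 or 11, with 699 windows each, and 273 windows held 1 read against 231 with 2. The most-read window, ENSMUSG00000108291, held 30 reads in the KAP1+/+ library (interval 20.2 to 42.8) and 19 in the KAP1f/f library (11.4 to 29.7). It was followed by ENSMUSG00000107961 with 30 and 18 reads and ENSMUSG00000102930 with 28 and 19. No late window reached 31 reads in the KAP1+/+ or 23 in the KAP1f/f library. After subtraction of Poisson variance, read density among the 8439 late windows with reads varied by 38.9% (coefficient of variation) in the KAP1+/+ library and by 51.6% in the KAP1f/f library. The corresponding values over 17445 early windows were 33.0% and 48.1%, so late windows differed somewhat more among themselves. Counts in the libraries correlated across the late windows at 0.53 (Pearson r) and 0.52 (Spearman rho), and across the early windows with 0.50 and 0.49. Windows are not independent replicates, and what they share includes base composition and mappability, neither of which was measured.

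**Figure D2:**
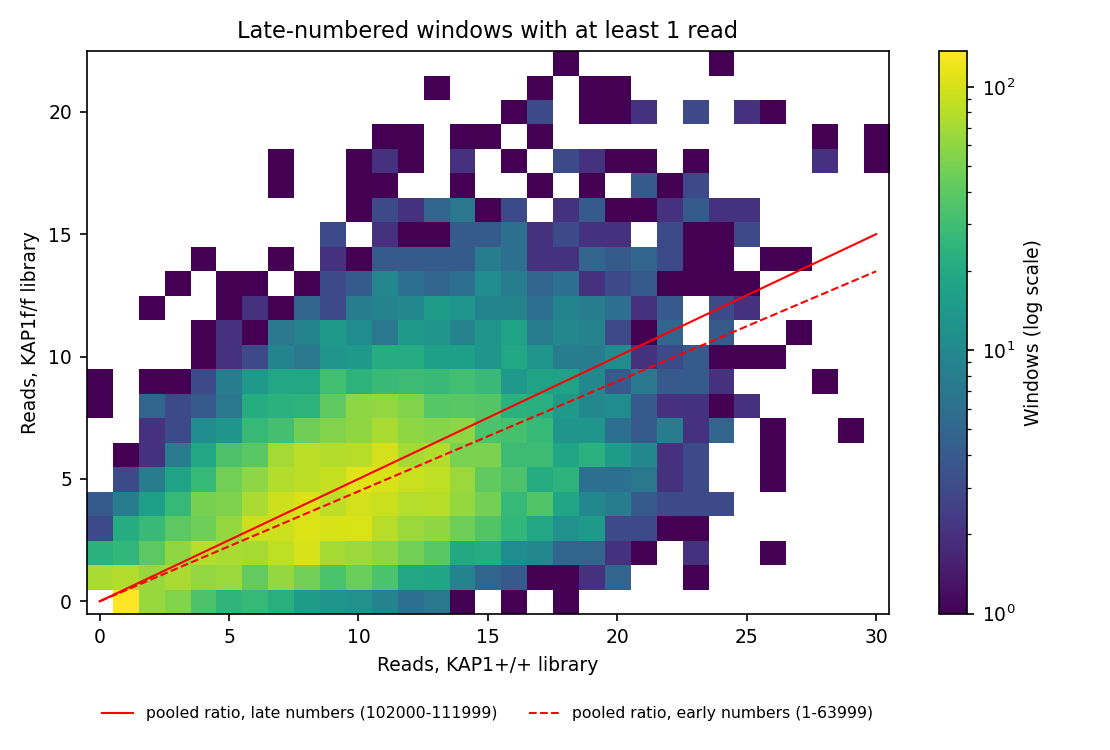
Number of late-numbered windows (colour, log scale) at each pair of read counts in the KAP1+/+ (horizontal) and KAP1f/f (vertical) library, for the 8439 windows with a read. The lines show the pooled ratio of late (solid) and early (dashed) numbers; windows lie around both lines, with a wide scatter from counting.

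The late-numbered windows held relatively more of the KAP1f/f library than the early ones. They had 83688 KAP1+/+ and 41861 KAP1f/f reads, that is 17.4% and 18.4% of the respective library's reads over all windows. The KAP1f/f library supplied 33.3% of their reads (33.1 to 33.6), against 31.02% (30.9 to 31.2) for early windows and 32.2% over the table. On the scale of total reads, the pooled KAP1f/f to KAP1+/+ ratio was 1.05 (1.04 to 1.07) in late and 0.95 (0.94 to 0.95) in early windows. The late ratio divided by the early ratio was 1.11 (log-normal 95% interval 1.10 to 1.13), a value that does not depend on how the libraries are scaled to each other. The interval treats reads as independent. Among windows with at least 10 reads, the KAP1f/f share varied around its pooled value with 1.14 times the binomial variance in late and 1.16 times in early windows, so the interval is somewhat too narrow. The difference was not particular to the late numbers. The middle windows had a pooled ratio of 1.04 (1.03 to 1.04), and late over middle was 1.02 (1.00 to 1.03). A difference between libraries and one between genotypes cannot be told apart here.

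The ratio was also compared within classes of reads per window, because late windows were shallower and the ratio varied with reads. In late windows it was 1.04 (0.94 to 1.16) at 1 to 4 reads over both libraries, 0.95 (0.91 to 0.99) at 5 to 9 and 0.97 (0.94 to 1.00) at 10 to 14. It was 1.02 (1.00 to 1.04) at 15 to 19 reads, 1.09 (1.07 to 1.12) at 20 to 29 and 1.40 (1.35 to 1.46) in the 280 windows with 30 or more. Above the lowest class the late ratio was thus higher with each class of reads. The early ratio followed the same course at a lower level, from 0.80 (0.76 to 0.83) at 5 to 9 reads to 0.96 (0.94 to 0.97) at 20 to 29 and 1.19 (1.17 to 1.22) at 30 or more. Within each of the 6 classes late windows had the higher ratio. Late over early lay between 1.13 (1.09 to 1.16), at 10 to 14 reads, and 1.23 (1.06 to 1.44), at 1 to 4 reads. With early windows weighted to the read classes of the late ones, the early ratio was 0.92 and late over early was 1.15 (1.13 to 1.16). These classes are sums of both libraries and so include the KAP1f/f reads that enter the ratio. The 1.15 is therefore not read as a gap at equal depth, and the sort described next does not use the KAP1f/f reads.

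The size of the increase with reads did not differ detectably between late and early numbers. The ratio at 20 or more reads divided by that at 1 to 19 reads was 1.16 (1.13 to 1.18) in late, 1.16 (1.14 to 1.18) in early and 1.16 (1.14 to 1.18) in middle windows. Late divided by early was 1.00 (0.97 to 1.03), an interval that takes in changes of up to 3% in either direction. A sort on the sum of the libraries picks windows that are high in either of them. When windows were instead sorted on a random 50% of their KAP1+/+ reads and measured on the rest, the ratio at 7 or more of those reads over that at fewer was 1.08 (1.05 to 1.11) in late and 1.09 (1.07 to 1.11) in early windows. Late over early was 1.13 (1.10 to 1.15) in the shallower and 1.11 (1.09 to 1.14) in the deeper windows of that sort.

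**Figure D3:**
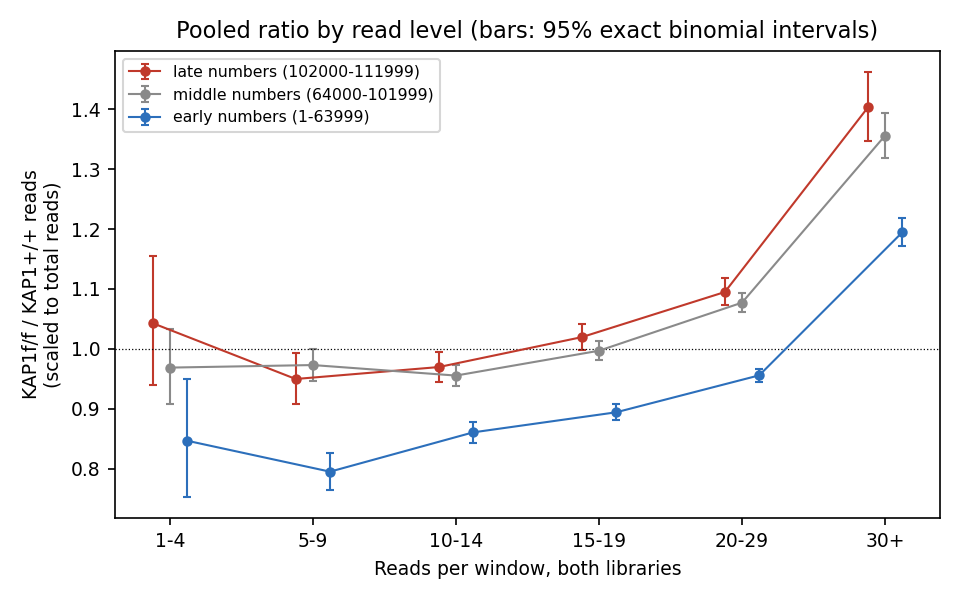
Pooled KAP1f/f to KAP1+/+ ratio, scaled to total reads (vertical axis), in 6 classes of reads per window over both libraries (horizontal axis), with 95% exact binomial intervals. The late and middle numbers run close together and above the early numbers in each class, from 0.95 against 0.80 at 5 to 9 reads to 1.40 against 1.19 at 30 or more.

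Within the late numbers the higher ratio was spread over the whole range. In groups of 1000 consecutive numbers, each with 937 to 997 windows, the ratio lay between 1.03 (0.99 to 1.07), for identifiers ENSMUSG00000109xxx (x standing for any digit), and 1.08 (1.04 to 1.12), for ENSMUSG00000103xxx. All 10 groups were above 1, and in 7 of them the interval was too. The 55 groups of early numbers with at least 100 windows (115 to 610 windows each) had ratios from 0.86 to 1.04 with a median of 0.95, and 52 were below 1. The ranges met in a single early group: ENSMUSG00000058xxx had a ratio of 1.04 (0.97 to 1.12), above the lowest late group. The 38 groups of middle numbers covered 0.89 to 1.16 and so took in the late range. Mean KAP1+/+ reads per window in the late groups were 8.17 to 9.14, against 8.96 to 13.6 in the early groups.

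**Figure D4:**
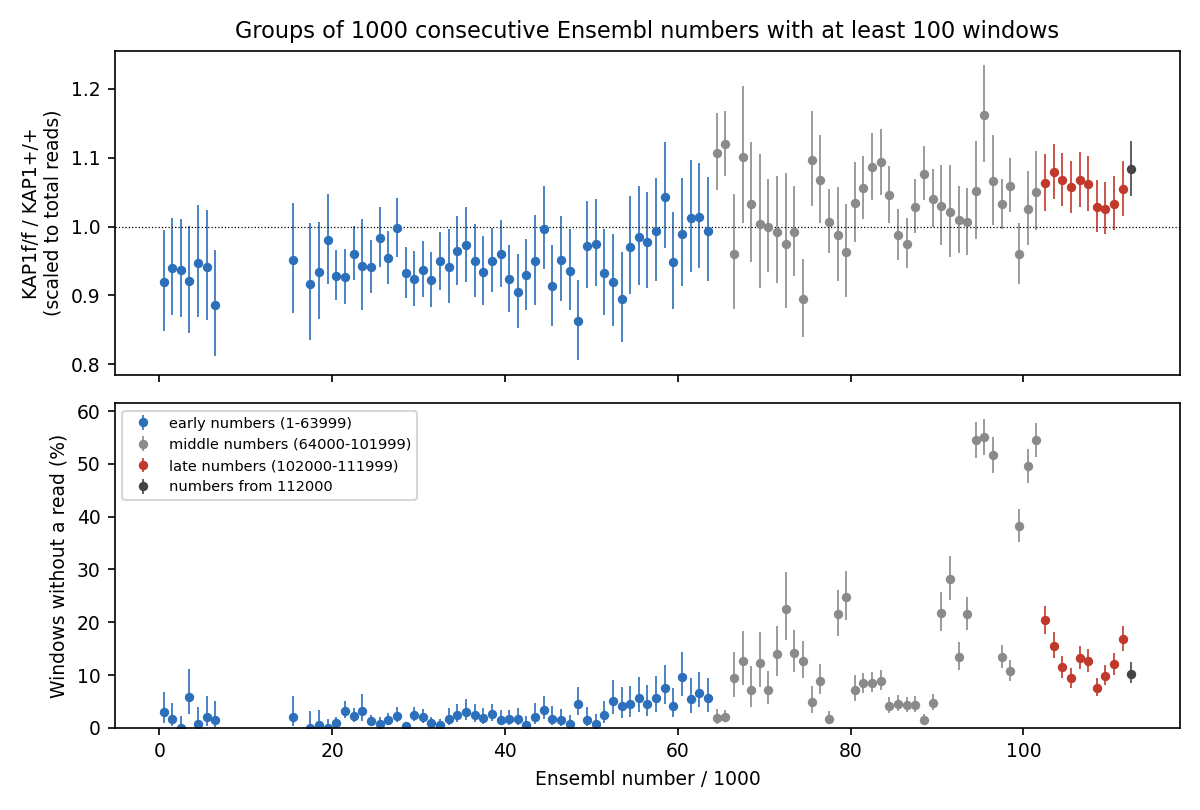
KAP1f/f to KAP1+/+ ratio (top) and share of windows without a read in either library (bottom, %) for groups of 1000 consecutive Ensembl numbers with at least 100 windows (horizontal axis, number divided by 1000), with 95% exact binomial intervals. The 10 late groups lie between 1.03 and 1.08, with 7.60% to 20.3% empty windows, while middle groups reach 55.1% empty windows.

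The share of empty windows was less even than the ratio. It was 20.3% (17.8 to 23.1) for ENSMUSG00000102xxx, fell to 7.60% (6.01 to 9.47) for ENSMUSG00000108xxx, and was 16.8% (14.5 to 19.2) for ENSMUSG00000111xxx. In groups of 100 numbers it ranged from 2% to 41.1% with a median of 11.6%. Segments picked out after these values were seen were the first 200 numbers, up to ENSMUSG00000102199, with 67 of 187 windows empty (35.8%, 28.96 to 43.2), and ENSMUSG00000106600 to ENSMUSG00000107399, with 154 of 734 (21.0%, 18.1 to 24.1). The numbers just before the first segment, ENSMUSG00000101xxx, had 54.5% empty windows (51.3 to 57.7), so the lower border of the late numbers cuts through a run of empty windows. At that border, ENSMUSG00000101998 just outside held 0 and 0 reads, and ENSMUSG00000102000 just inside held 13 and 3 (KAP1+/+ first). At the upper border ENSMUSG00000111999 held 14 and 6 reads and ENSMUSG00000112000, just outside, 25 and 10. Windows with reads did not stand apart in the segments rich in empty ones: their ratio was 1.07 (0.97 to 1.19) and 1.07 (1.02 to 1.12), close to the 1.05 of all late windows.

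Few neighbours in number had identical counts. Of 9379 pairs of consecutive late numbers, 34 (0.36%) had identical counts in both libraries with 10 reads or more, compared with 60 of 7111 early pairs (0.84%). Both shares are of all pairs, whether or not they reached 10 reads. That level was reached by 67.1% of late and 84.8% of early windows, so the shares are not on an equal footing. Read totals of consecutive late numbers had a Pearson r of 0.01, against 0.08 for early and 0.14 for middle numbers. How many pairs would be identical by coincidence was not computed, and windows that share only part of their reads need not have identical counts. Consecutive numbers need not be neighbours on a chromosome, so windows that overlap elsewhere would not be seen in this way.

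Groups of 100 late numbers, with 88 to 100 windows each, had ratios from 0.87 to 1.26 with a median of 1.05. Of the 100 groups, 78 were above 1 and 95 above the pooled early ratio of 0.95. The interval lay wholly above 1 in 19 groups and wholly below it in 1, ENSMUSG000001111xx at 0.87 (0.76 to 0.98). The highest was ENSMUSG000001045xx at 1.26 (1.12 to 1.41). As 100 intervals were computed, these extremes are descriptions.

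**Figure D5:**
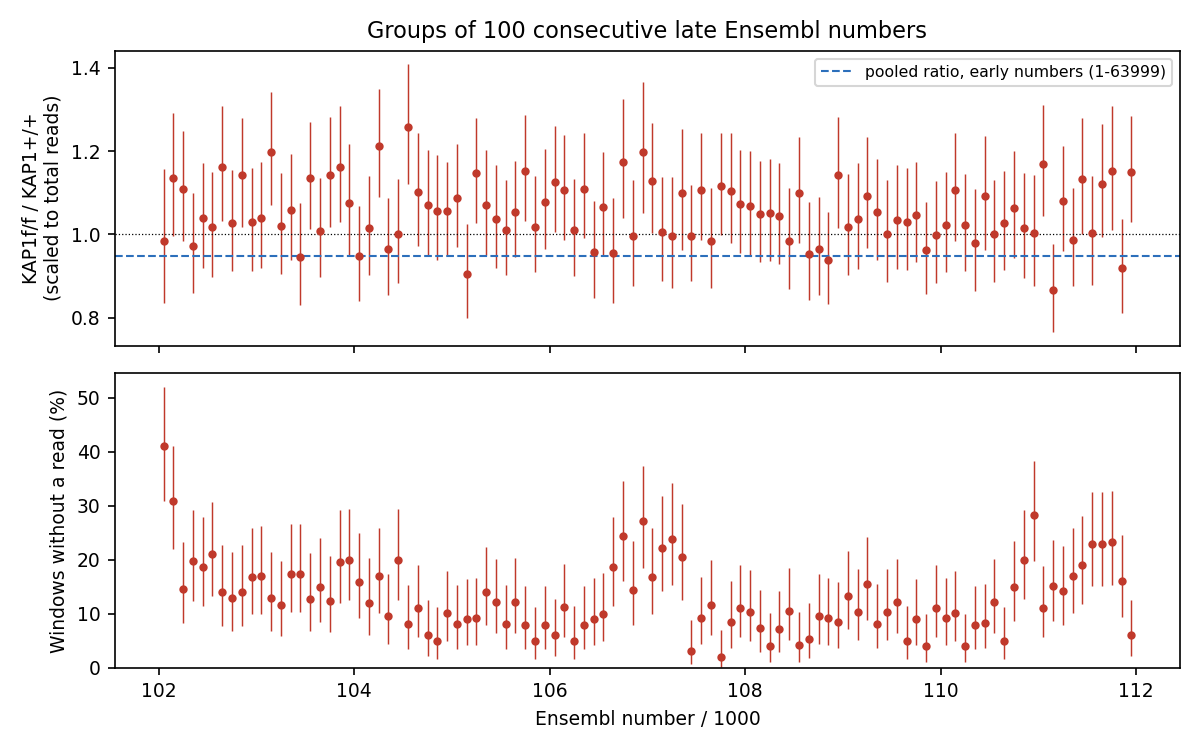
The same measures for the 100 groups of 100 consecutive late Ensembl numbers (horizontal axis, number divided by 1000): ratio on top, with the early pooled ratio of 0.95 as a dashed line, and share of empty windows (%) below, with 95% exact binomial intervals. Most groups lie above the dashed line, and empty windows are most frequent at the first numbers (41.1%).

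Single windows were compared where they had at least 10 reads over both libraries, which 6494 late windows (67.1%) and 15151 early windows (84.8%) did. This filter sums the libraries, so a window could pass through the library in which it was high. The calls and named windows below are therefore descriptions only. Another 1945 late windows had 1 to 9 reads and 1245 had none. The log2 ratio was taken with 2 reads added, scaled to library size. Its median over late windows was 0.06 (SD between windows 0.69), with 3322 (51.2%) above 0. In early windows the median was -0.10 and the SD 0.68, with 42.5% above 0. Calls were made for windows with a ratio of 2-fold or more in either direction, provided that the exact interval of its KAP1f/f share excluded that of the whole library. These calls compare the libraries, not the genotypes.

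More late windows were called higher than lower in the KAP1f/f library. Of the 6494 windows, 189 (2.91%, 2.52 to 3.35) were called higher, beside 2.49% of all windows compared, and 83 (1.28%, 1.02 to 1.58) were called lower, beside 1.81%. Early windows had 1.80% higher and 2.24% lower, so the balance was the other way. Middle windows had 2.99% higher and 1.57% lower, so the excess of higher calls was not particular to the late numbers. Higher calls were 69.5% of late calls, while all windows together had 885 higher and 644 lower. The counts depend on the reads added to each library: with 10 in place of 2 there were 24 higher and 15 lower (61.5% higher). With a mean of at least 10 reads there were 103 higher and 26 lower among 2022 windows. That filter counts the KAP1f/f reads, so a high KAP1f/f count itself helps a window pass, and the split is a description only. Calls over all windows were not counted at either of these settings, so no share of the table stands beside them. The split between higher and lower calls also depends on the expected value, since a change of that value moves calls by construction. As an alternative chosen after seeing the data, each set's own pooled ratio was taken as the expected value. Late windows then had 141 higher (2.17%) and 99 lower (1.52%), so that 58.8% of their calls were higher. Early windows then had 342 higher (2.257%) and 257 lower (1.70%), and 2.29% of all windows were called higher and 1.65% lower. On that scale more windows were called higher than lower in late numbers, in early numbers and over all windows (814 higher and 586 lower). Both late shares were slightly below those of all windows. The groups of 1000 numbers were counted only with the whole library as the expected value. There, each of the 10 groups had more windows called higher (12 to 26) than lower (5 to 11), beside 2.49% higher and 1.81% lower over all windows. The pooled ratio of each of these groups was above 1 on that scale, which itself tilts the split toward higher calls. Calls in groups of early or middle numbers were not counted.

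Higher calls made up a larger share of the windows with 30 or more reads than of those with fewer. These classes again count the KAP1f/f reads, so that a high KAP1f/f count itself moves a window up, and the exact interval is narrower where reads are many. Calls were not made on the sort by KAP1+/+ reads, and the share is given as a description only. In the 280 late windows with 30 reads or more, KAP1+/+ counts ran from 11 to 30 with a median of 20, and KAP1f/f counts from 5 to 22 with a median of 13.5. There 28 windows (10%) were called higher and 0 lower, 229 (81.8%) had a log2 ratio above 0, and the median was 0.43. Early windows of that class had 81 of 1210 (6.69%) higher and 14 lower, with a median of 0.23. Calls over all windows were not counted by class of reads. In late windows with 10 to 14 reads 30 of 2220 (1.35%) were higher and 35 (1.58%) lower, with a median of -0.10.

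Few reads stood behind the calls that ranked first when sorted on the interval limit nearest to no change. Among those higher in the KAP1f/f library, ENSMUSG00000110754 held 2 KAP1+/+ and 12 KAP1f/f reads, a ratio of 12.6 (2.81 to 116). ENSMUSG00000107867 held 3 and 13 reads, a ratio of 9.13 (2.51 to 49.9), and ENSMUSG00000108049 held 4 and 14, a ratio of 7.37 (2.32 to 30.8). In the other direction, ENSMUSG00000111545 held 18 KAP1+/+ reads (10.7 to 28.4) and 0 KAP1f/f reads, with an interval of the ratio that reached up to 0.48. ENSMUSG00000108676 held 16 and 0 reads, with an interval up to 0.55, and ENSMUSG00000103543 held 23 and 1, a ratio of 0.09 (0.002 to 0.56). Of the 83 windows called lower, 37 had no KAP1f/f read. With 3 KAP1f/f reads allowed for the 0 in each, and the error of the KAP1+/+ count left aside, these 37 were at least 1.58- to 2.85-fold lower. Of them, 27 fell short of 2-fold on that scale. With the 3.69 of the exact interval in place of 3, each of these folds would be smaller. All 83 held 10 to 28 reads in total with a median of 15. The 189 called higher held 10 to 41 reads with a median of 21. Because they were the extremes of 6494 windows, their single-window intervals understate the error.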

How the data were processed

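The authors deposited 1 table of whole-number read counts per start site window, with a column per genotype, per the file headers. The submitters' processing notes name Bowtie2 2.2.9, Picard 2.1.1, bedtools 2.26.0 and the build mm10. Window width, gene annotation and any filter on mapping or duplicates were not given in the sources read. Such filters can empty windows in repeated sequence and lower high counts. No column was used as an input library, and 0 columns of values were left unused.

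Windows were grouped by Ensembl number. The members, the comparison sets and the measures were chosen with earlier results of these data known. Reads were pooled over windows, and ratios were scaled to each library's total, which removes a difference in total signal. Shares and ratios have exact Clopper-Pearson intervals, mean counts exact Poisson ones, and ratios of ratios log-normal ones. Named windows were the 3 most read, the first 3 calls in each direction by the near limit of the interval, and those at the borders of the number range. Calls needed at least 10 reads in total, a mean of 5 per library. With 1 library each, genotypes were not tested. The computations were tested on simulated data. Software was pandas 2.3.3, scipy 1.17.1 and numpy 2.4.6 under Python 3.11.15.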

Additional observations from a re-analysis of the deposited data

How the results depend on the processing

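Late over early ratio (1.11) was 1.11 to 1.12 with a mean of at least 5 reads, without the 1% most-read windows, with a narrower late range (ENSMUSG00000103xxx to ENSMUSG00000110xxx) or early range (numbers under 50000), and without each group of 1000 late numbers. It was 1.15 with early windows weighted to late read classes and 1.15 in strata of total reads (chosen after seeing the data). The late ratio was 1.08 by median of ratios (a log2 shift of 0.04) and 1.11 scaled to early windows. The early ratio was 0.97 and, by construction, 1.00, and 0.955 with a mean of at least 5 reads and 0.94 without the top 1%. The increase with reads (1.16 in both) was 1.08 late and 1.09 early when sorted on 50% of the KAP1+/+ reads, and 1.14 early without the top 1%. Late means (KAP1+/+, then KAP1f/f) were 9.92 and 4.96 in windows with reads, 8.50 and 4.20 without the top 1%, and 8.75 and 4.37 for the narrower late range. Late over early means were 0.81 and 0.90 in windows with reads, 0.73 and 0.81 for the narrower late range, and 0.70 and 0.78 against the narrower early range. Empty windows were 11.4% of the narrower late range and 1.76% of the narrower early range. Windows with at most 1 read were 15.04% late and 3.02% early. Late calls were 15 lower and 24 higher with 10 reads added. They were 26 and 103 with a mean of at least 10 reads (2022 windows left), a filter that counts the KAP1f/f reads. The cause of these changes was not tested, beyond the smaller sets of windows. The late numbers had the higher ratio, fewer reads and more empty windows than early ones at each setting run. Depth, at a median of 9 and 4 reads per late window, limits statements on single windows. No paired analysis was possible because there was 1 library for each genotype.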

Other observations

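The 933 windows from ENSMUSG00000112000 on, outside the sets compared above, had 10.3% empty windows (8.41 to 12.4) and a pooled KAP1f/f to KAP1+/+ ratio of 1.08 (1.04 to 1.12). Their mean was 8.89 reads in the KAP1+/+ library (8.70 to 9.09) and 4.57 in the KAP1f/f library (4.44 to 4.71). These values lie near those of the late numbers.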
